A study of Mus musculus with 6 samples.

Results

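The genes examined here are 10 genes of antigen presentation by the major histocompatibility complex (MHC), out of 38293 genes counted by RNA-seq. Of these, 6 belong to the class I route (H2-K1, H2-D1, B2m, Tap1, Tap2 and Nlrc5) and 4 to the class II route (H2-Aa, H2-Ab1, H2-Eb1 and Cd74). They were chosen by symbol, and each symbol was matched to 1 Ensembl identifier, so that all 10 were found. The wt group held 3 embryos that the labels give as wild-type for hnRNP L, and the hnRNP L deficient group held 3 embryos that are VavCre+ hnRNP L fl/fl, in which the Vav promoter drives Cre in hematopoietic cells and deletes the floxed alleles there. Whether the wt embryos carried floxed alleles or the transgene is not given in their labels. A figure caption of the paper marks its wt RNA-seq samples as L fl/fl, which means floxed alleles. All were C57BL/6 embryos at day 14.5 (E14.5), and each library came from 1 embryo. The methods describe the cells as Lin-cKit+ fetal liver (FL) cells, a fraction of stem and progenitor cells without markers of mature lineages, whereas the labels name fetal liver cells as the source and the entire embryo as the tissue.

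MHC class I molecules consist of a heavy chain such as H2-K or H2-D paired with beta-2-microglobulin, and most nucleated cells carry them. Their peptides are cut from cytosolic proteins by the proteasome, pumped into the endoplasmic reticulum by the TAP transporter and loaded there, for display to CD8 T cells and for recognition by natural killer cells. MHC class II molecules consist of an alpha and a beta chain that travel with the invariant chain CD74, take up peptides in endosomes, and are largely a feature of B cells, dendritic cells and macrophages. Promoters of both classes share a module to which RFX, CREB-type factors and the CCAAT-binding factor NF-Y bind, on which the coactivator NLRC5 serves class I genes and the coactivator CIITA serves class II genes.

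The CREB-type and NF-Y parts of this module were looked for in the promoter sequences, whereas RFX sites were not searched for. The sequences are shown because the factors named above are among the genes measured below. RefSeq promoter windows (GRCm38.p6, from 250 bases before to 50 bases after the annotated start) were at hand for 6 of the 10 genes, namely H2-K1, H2-D1, B2m, Tap1, H2-Aa and H2-Eb1. Each line gives a stretch upstream of the start, 5′ to 3′ on the strand of the gene, and capitals mark the core of a CREB-type site and, nearer to the start, the NF-Y box.
H2-K1: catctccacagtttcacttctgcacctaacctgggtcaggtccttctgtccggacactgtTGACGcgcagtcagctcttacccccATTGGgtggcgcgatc
H2-D1: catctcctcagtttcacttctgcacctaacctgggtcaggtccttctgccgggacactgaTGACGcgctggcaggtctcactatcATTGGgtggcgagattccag
B2m: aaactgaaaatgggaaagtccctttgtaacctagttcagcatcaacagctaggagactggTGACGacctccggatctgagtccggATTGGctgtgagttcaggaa
H2-Aa: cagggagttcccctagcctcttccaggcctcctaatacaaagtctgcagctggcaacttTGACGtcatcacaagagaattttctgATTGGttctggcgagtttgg
H2-Eb1: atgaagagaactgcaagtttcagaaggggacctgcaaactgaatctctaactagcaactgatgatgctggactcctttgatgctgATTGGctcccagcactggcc
The stretches lie at chr17:34000348-34000448 on the minus strand for H2-K1, chr17:35262933-35263037 on the plus strand for H2-D1, chr2:122147549-122147653 on the plus strand for B2m, chr17:34287852-34287956 on the minus strand for H2-Aa and chr17:34305723-34305827 on the plus strand for H2-Eb1.

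The CREB-type core, TGACG, stood 20 bases before the NF-Y box, which reads ATTGG on this strand, in H2-K1, H2-D1 and B2m and 21 bases before it in H2-Aa. A TGACG followed on the same strand by ATTGG after 15 to 25 bases, a spacing searched for after these sequences had been read, was in the windows of 4 of the 6 genes and in 0.435% of all 32851 windows. H2-Eb1 held ATTGG without TGACG. Tap1 held TGACG and CCAAT, but not in that order and spacing. Taken singly and on either strand, CCAAT was in all 6 windows and in 37.4% of all windows, and TGACG in 5 of 6 and in 20.8% of all windows. The interferon element searched for, GAAA, any 2 bases and GAAA again, was in the B2m window alone among the 6 and in 3.44% of all windows. Other forms of the element were not searched for, so the other windows may hold one. Aligned on ATTGG over 90 bases, H2-K1 and H2-D1 were 87.8% identical, whereas H2-Aa and H2-Eb1 were 27.8% identical. A match to such letters describes the sequence and does not show that a factor binds there.

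The targeted gene was lower in the hnRNP L deficient libraries. Hnrnpl mRNA had 552, 531 and 528 CPM (read counts scaled to a normalized library size) in wt and 242, 288 and 270 CPM in deficient replicates. The log2 fold change was -1.01 (standard error, SE, 0.09, edgeR quasi-likelihood test with Benjamini-Hochberg adjustment, adjusted p = 0.0072). The counted mRNA thus remained at 0.497 of its wt level. The words without hnRNP L below name the genotype, not absence of the mRNA or protein. The paper allows that incompletely deleted cells with residual protein stayed in its RNA-seq samples. Reads on genes numbered 55952160 to 76157226 per library, at which 3 reads correspond to 0.0402 to 0.054 CPM. The expression filter kept 14396 genes, and of these 2759, or 19.2%, passed an adjusted p-value of 0.05, with 9.85% lower and 9.32% higher in hnRNP L deficient cells. In 22.7% of the tested genes every hnRNP L deficient library lay below every wt library, and in 22.7% every one lay above. Kit, which encodes the sorted receptor, was present in every library at 325 to 656 CPM. Wt replicate 2 stood apart in transcripts of granulocyte precursors (Mpo, Elane, Prtn3 and Ctsg), which summed to 7695 CPM there and to 550 and 1416 CPM in wt replicates 1 and 3, against 231 to 751 CPM in the hnRNP L deficient libraries. For the class I genes and for part of the other genes below, results without this library are given as well. None are given for marker genes or for levels of exon bins.

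In wt cells, reads per length of exon (CPM per kilobase of merged exons) placed the genes in a steep order. B2m had a mean of 177 CPM per kilobase, H2-D1 36.1, H2-K1 25.3, Tap2 10.7 and Tap1 3.69. H2-Ab1 followed with 1.7 CPM per kilobase. The other 4 genes were near the detection limit, with 0.116 for Cd74, 0.0532 for Nlrc5, 0.0383 for H2-Eb1 and 0.0122 for H2-Aa. The ranges of neighbours in this order did not overlap over the 3 wt libraries, except for Tap1 with H2-Ab1, Nlrc5 with H2-Eb1 and H2-Eb1 with H2-Aa. In hnRNP L deficient cells the same order held from B2m down to H2-Ab1 with no overlap between neighbours, and the 4 lowest genes overlapped.

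**Figure D1:**
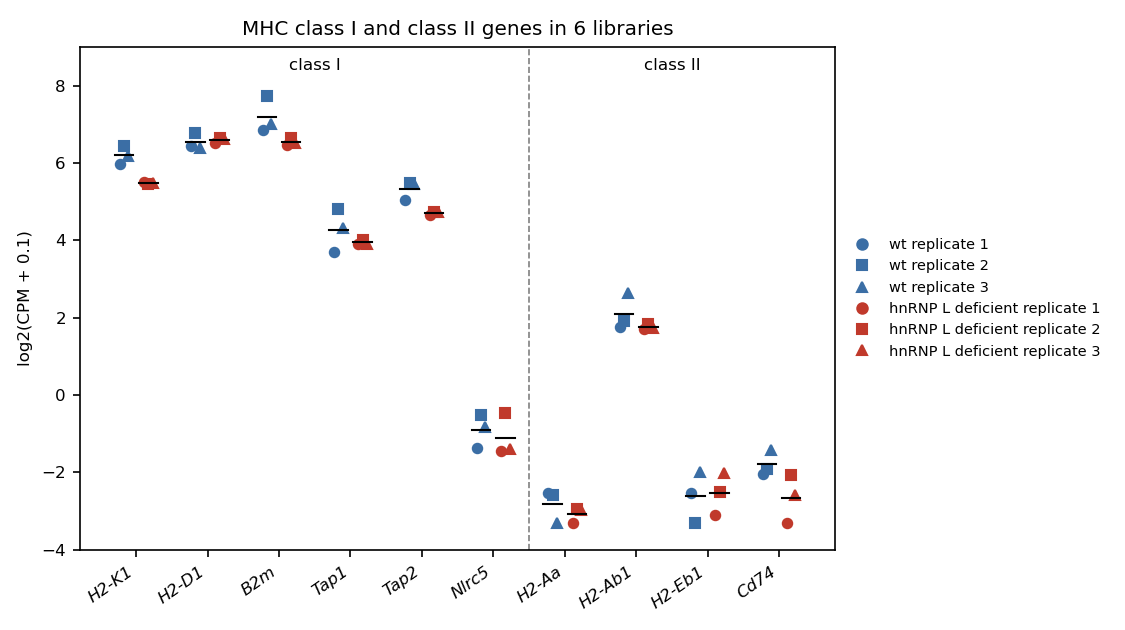
Levels of the 10 genes in each library as log2(CPM + 0.1), with class I genes on the left and class II genes on the right. Points are libraries (wt in blue, hnRNP L deficient in red) and black lines are means of 3 libraries on this scale; hnRNP L deficient libraries lie below all wt libraries for H2-K1, B2m, Tap2 and Cd74, and class II genes other than H2-Ab1 lie near the lower limit.

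Of the 6 class I genes, all of which passed the expression filter, H2-K1 and Tap2 fell in hnRNP L deficient cells and the other 4 did not pass the test, against 9.85% of all tested genes that fell. H2-K1, the heavy chain of the H2-K molecule (chromosome 17 of GRCm38, 33996017 to 34000347), gave 63.1, 87.2 and 72.7 CPM in wt and 45.6, 44.2 and 44.9 CPM without hnRNP L. The groups did not overlap, and the mean fell from 74.4 ± 12.1 to 44.9 ± 0.66 CPM (SD, n = 3 each), a log2 fold change of -0.73 (SE 0.12, edgeR adjusted p = 0.015). In such bulk RNA, fewer cells of an expressing type and less RNA per cell cannot be told apart.

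H2-D1, the second classical heavy chain (chromosome 17, 35262730 to 35267499), had 86.6, 109 and 84.3 CPM in the wt libraries. Without hnRNP L it had 91.8, 100 and 97.6 CPM, all within the wt range. Its log2 fold change was 0.05 (SE 0.11, edgeR adjusted p = 0.77), and its sign turned with scaling by total counts (-0.02) and without wt replicate 3 (-0.02). The heavy chains thus differed in their values within the same libraries. The log2 ratio of H2-K1 to H2-D1 was -0.46, -0.32 and -0.21 in wt and -1.01, -1.18 and -1.12 without hnRNP L. All 3 hnRNP L deficient libraries lay below all wt libraries, with a difference of -0.77 between the means. This ratio was chosen after the values had been seen and is given as a description, with no test. H2-K1 supplied 42.2% to 46.3% of the reads on both genes in wt and 30.7% to 33.2% in hnRNP L deficient cells.

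Both heavy chains have near-identical relatives in the MHC, and reads that align to several places were not counted, so their levels are uncertain to that extent. Of all 50-base windows of the longest coding transcript, 8.79% in H2-K1 and 14.3% in H2-D1 also occurred in a transcript of another gene. The exon bins of both genes, stretches of exon counted separately in 5 libraries, showed where the reads lay. In H2-K1 all 17 bins that averaged 100 or more reads in wt had a lower mean CPM in hnRNP L deficient cells, between 51.3% and 66.1% of wt. In H2-D1 the 11 such bins lay between 88.9% and 119% of wt, with a median of 99.1%. The ranges of the bins of these genes did not overlap.

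**Figure D2:**
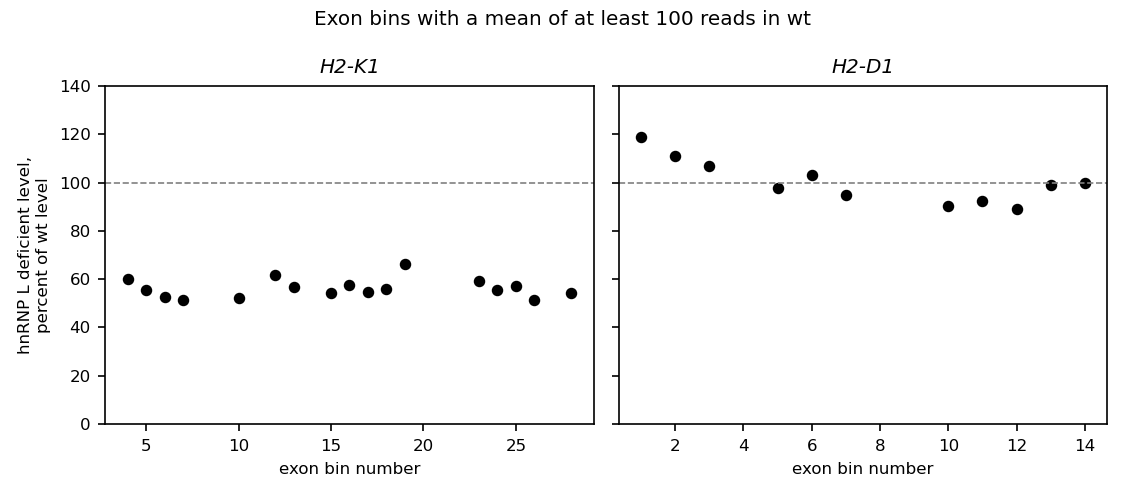
Mean CPM of exon bins of H2-K1 and H2-D1 in 2 hnRNP L deficient libraries as a percentage of the mean in 3 wt libraries, against the bin number in the deposited annotation. Each point is a bin with a mean of at least 100 wt reads, and the dashed line marks equal levels; bins of H2-K1 lie at 51.3% to 66.1% and bins of H2-D1 at 88.9% to 119%.

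**Figure D3:**
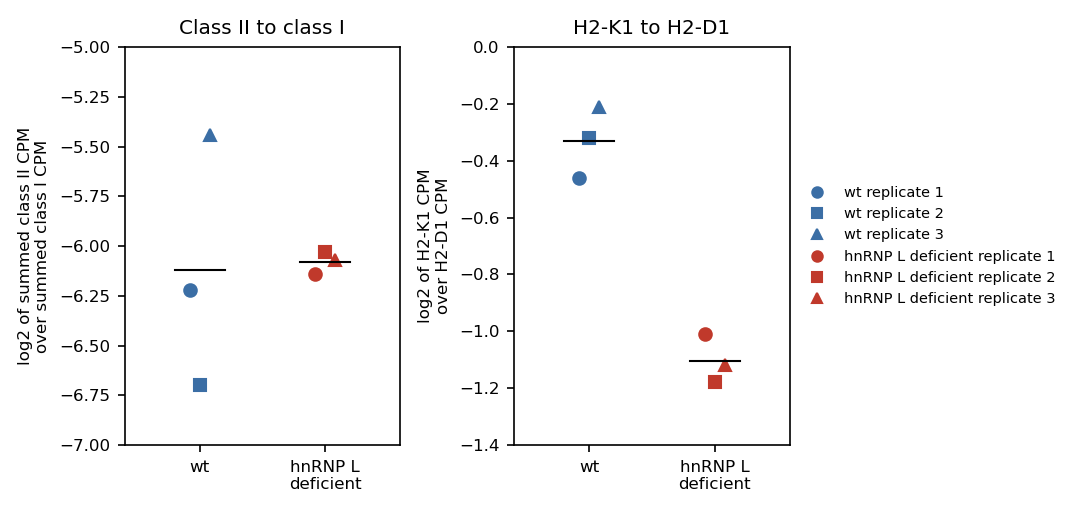
Log2 ratios within each library, with the 4 class II genes over H2-K1, H2-D1 and B2m on the left and H2-K1 over H2-D1 on the right. Points are libraries and black lines are means of 3; the class II to class I ratio of hnRNP L deficient libraries lies within the wt range, and their H2-K1 to H2-D1 ratio lies below all wt libraries.

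B2m, the light chain shared by all class I molecules (chromosome 2, 122147686 to 122153083), measured 116, 212 and 128 CPM in wt and 87.9, 100 and 91 CPM in the deficient libraries. The groups did not overlap, and wt replicate 2 was the highest. The log2 fold change of -0.71 (SE 0.23) missed the threshold (edgeR adjusted p = 0.07). Without wt replicate 2 the change was smaller and passed (log2 fold change -0.39, SE 0.08, edgeR adjusted p = 0.016), and it also passed without wt replicate 1 (adjusted p = 0.028), with DESeq2 (adjusted p = 0.007) and with limma-voom with sample weights (adjusted p = 0.017). All 4 exon bins of B2m had 56% to 61.6% of their wt level in the 5 libraries with bin counts. These include wt replicate 2, which had the most reads in each bin, and the bin levels were not computed without it.

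The TAP transporter is a dimer of the products of Tap1 and Tap2. Tap2 (chromosome 17, 34203527 to 34216321) stood at 32.7, 44.6 and 43.6 CPM in wt against 25.1, 26.5 and 26.4 CPM in hnRNP L deficient libraries, with no overlap. It fell by 0.63 on the log2 scale (SE 0.13, edgeR adjusted p = 0.023). Tap1 (chromosome 17, 34187553 to 34197225) gave 12.8, 28 and 19.9 CPM in wt and 14.9, 16 and 15 CPM without hnRNP L. The groups overlapped, since wt replicate 1 was the lowest of all 6 libraries and wt replicate 2 the highest (log2 fold change -0.40, SE 0.26, edgeR adjusted p = 0.30). Without wt replicate 1 the log2 fold change of Tap1 was -0.64 (adjusted p = 0.031), and without wt replicate 2 it was -0.09 (adjusted p = 0.74). Parts of both genes overlap other transcripts, with 12.6% of the 50-base windows of Tap2 and 6.47% of those of Tap1 found in transcripts of another gene.

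Nlrc5, the coactivator of class I promoters (chromosome 8, 94434356 to 94527272), was read only 16 to 41 times per library. It measured 0.288, 0.6 and 0.468 CPM in wt and 0.264, 0.627 and 0.281 CPM in the deficient libraries. The groups overlapped fully (log2 fold change -0.21, SE 0.50, edgeR adjusted p = 0.79), and a change of this gene was not detectable at this depth and spread. The sign of its log2 fold change turned without wt replicate 2 (0.04) and without hnRNP L deficient replicate 1 (0.01).

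Over the class I genes, 2 of 6 fell and none rose (9.85% and 9.32% of all tested genes), with a median log2 fold change of -0.52 against -0.03 over all tested genes. In 5 of the 6 genes wt replicate 2 was the highest of all 6 libraries. Without it the log2 fold changes were -0.60 for H2-K1, 0.18 for H2-D1 and -0.39 for B2m. Those of Tap1, Tap2 and Nlrc5 were then -0.09, -0.55 and 0.04. The calls of H2-K1 and Tap2 depended on the libraries included. Both were lost without wt replicate 3 (edgeR adjusted p = 0.055 for H2-K1 and 0.074 for Tap2), without hnRNP L deficient replicate 1 (0.075 and 0.1), replicate 2 (0.074 and 0.09) or replicate 3 (0.094 and 0.11). Under each of these 4 omissions no more than 17 genes of the entire table were called, and the log2 fold changes of H2-K1 stayed between -0.74 and -0.70. The log2 fold change of H2-K1 was -0.83 without wt replicate 1 and -0.60 without wt replicate 2. Without wt replicate 1, 4 class I genes were called, and without wt replicate 2, 3 were called.

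Class II mRNA was close to absent apart from H2-Ab1. H2-Ab1, the beta chain of the I-A molecule (chromosome 17, 34257689 to 34269419), stood at 3.28, 3.69 and 6.11 CPM in wt against 3.17, 3.5 and 3.24 CPM in hnRNP L deficient libraries. The groups overlapped, with wt replicate 3 highest (log2 fold change -0.40, SE 0.27, edgeR adjusted p = 0.31), and without wt replicate 3 the log2 fold change was -0.07 (adjusted p = 0.81). The gene was called by limma-voom with sample weights (adjusted p = 0.044). It supplied 91.9% to 99.5% of the class II reads of each library, and its reads lay on 9 of its 10 exon bins, 5 of which had a mean of at least 10 reads.

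The other class II genes did not pass the expression filter and are given as reads. H2-Aa, the alpha chain that pairs with H2-Ab1 (chromosome 17, 34282744 to 34287823), gave 4, 4 and 0 reads in wt and 0, 2 and 2 reads without hnRNP L. H2-Eb1, the beta chain of the I-E molecule (chromosome 17, 34305867 to 34316674), measured 4, 0 and 11 reads in wt and 1, 5 and 11 reads in the deficient libraries. For both genes the groups overlapped, at or near the limit of detection.

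Cd74, the invariant chain, stood at 8, 10 and 20 reads in wt against 0, 9 and 5 reads in hnRNP L deficient libraries. On the CPM scale every hnRNP L deficient library lay below every wt library, the closest being 0.138 CPM in hnRNP L deficient replicate 2 and 0.144 CPM in wt replicate 1. The ratio of the summed reads, scaled to library size, was 0.339 (95% interval 0.17 to 0.64, which covers counting error only). When the filter was left out, edgeR gave an adjusted p of 0.37. C57BL/6 mice carry MHC genes from which I-A but no I-E molecule is assembled, and the alpha chain and invariant chain that I-A needs were thus among the scarcest of the transcripts examined.

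Set against each other, summed class II CPM (H2-Aa, H2-Ab1, H2-Eb1 and Cd74) were far below summed class I CPM (H2-K1, H2-D1 and B2m) in each library. Class I exceeded class II 74.5-fold, 104-fold and 43.5-fold in wt and 70.8-fold, 65.2-fold and 67-fold without hnRNP L. The hnRNP L deficient libraries lay within the wt range. As log2 of class II over class I, the mean was -6.12 ± 0.63 in wt and -6.08 ± 0.06 in hnRNP L deficient cells (SD, n = 3 each), a difference of 0.04 that is smaller than the spread of the wt libraries. The difference ran from -0.25 without wt replicate 2 to 0.38 without wt replicate 3. No test was made of this ratio, since it is a sum over chosen genes.

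The class I pathway beyond these members was examined in 25 listed genes, of which 21 passed the filter, 9 fell, 1 rose and 11 did not pass the test. Of all tested genes 9.85% fell and 9.32% rose. The median log2 fold change was -0.57, against -0.03 over all tested genes. In the proteasome, the immunoproteasome subunits Psmb8, Psmb9 and Psmb10 take the places of the constitutive subunits Psmb5, Psmb6 and Psmb7 and favour peptides that suit class I. Psmb8 gave 14.5, 52.9 and 26.8 CPM in wt and 5.89, 7.04 and 6.03 CPM without hnRNP L, a log2 fold change of -2.31 (SE 0.46, edgeR adjusted p = 0.025). Psmb9 measured 5.1, 14.7 and 8.18 CPM in wt and 2.7, 3.08 and 2.67 CPM in the deficient libraries, a log2 fold change of -1.73 (SE 0.37, edgeR adjusted p = 0.026). In both genes wt replicate 2 was highest and wt replicate 1 lowest of the wt libraries, and the groups did not overlap. Without wt replicate 2 the log2 fold changes were smaller, -1.71 for Psmb8 and -1.24 for Psmb9 (edgeR adjusted p = 0.0065 and 0.013).

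Psmb10 moved the other way. It stood at 49.8, 60.4 and 44 CPM in wt against 90.4, 81.5 and 88.1 CPM in hnRNP L deficient libraries, a log2 fold change of 0.75 (SE 0.12, edgeR adjusted p = 0.015). The 3 immunoproteasome subunits thus did not move together, since Psmb8 and Psmb9 fell and Psmb10 rose with no overlap of the groups in any of them. The constitutive subunits were added after these values had been seen. Psmb6 rose from 148 ± 5.15 to 182 ± 9.12 CPM (SD, n = 3 each; log2 fold change 0.30, edgeR adjusted p = 0.032). Psmb7 (log2 fold change 0.28, adjusted p = 0.051) and Psmb5 (0.25, adjusted p = 0.063) missed the threshold. For these 3 genes every hnRNP L deficient library lay above every wt library, as in 22.7% of all tested genes. Psme1 and Psme2, which form the activator cap that interferon induces on the proteasome, fell by 0.57 and 0.37 on the log2 scale (edgeR adjusted p = 0.030 and 0.034).

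**Figure D4:**
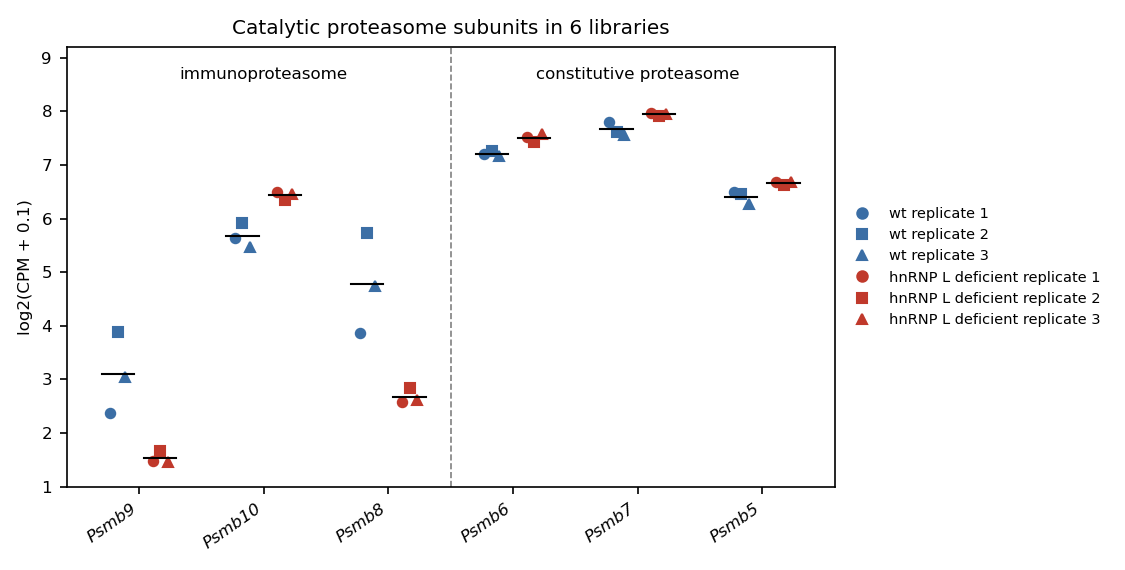
Catalytic proteasome subunits as log2(CPM + 0.1), with the immunoproteasome subunits on the left and the constitutive subunits whose places they take on the right in the same order. Points are libraries and black lines are means of 3; Psmb9 and Psmb8 are lower in all hnRNP L deficient libraries, and Psmb10 and the constitutive subunits are higher.

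Psmb9 lies head to head with Tap1, their RefSeq starts being 226 bases apart on opposite strands, so that the TGACG of the Tap1 window is that of the Psmb9 window as well. Of this pair Psmb9 fell and Tap1 did not pass the test. The difference between them was not tested.

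Peptide trimming and the related heavy chains were the other class I genes that changed. Erap1, the aminopeptidase that trims peptides in the endoplasmic reticulum, fell from 70 ± 10.3 to 48.6 ± 1.35 CPM (SD, n = 3 each; log2 fold change -0.53, SE 0.11, edgeR adjusted p = 0.024). H2-T23, which encodes the nonclassical molecule Qa-1, gave 11.5, 22.5 and 17.7 CPM in wt and 8.2, 7.51 and 6.22 CPM without hnRNP L (log2 fold change -1.24, SE 0.25, edgeR adjusted p = 0.023). Cd1d1, which presents lipids to natural killer T cells, measured 7.72, 15.8 and 9.5 CPM in wt and 4.05, 4.09 and 3.9 CPM in the deficient libraries (log2 fold change -1.46, SE 0.28, edgeR adjusted p = 0.020). Each of them was lower in all 3 hnRNP L deficient libraries than in any wt library.

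The scarce heavy chains H2-Q4 (0.841 ± 0.253 CPM in wt and 0.283 ± 0.0102 CPM in hnRNP L deficient cells, SD, n = 3 each) and H2-T10 (0.483 ± 0.105 and 0.115 ± 0.063 CPM) fell as well, with edgeR adjusted p = 0.031 and 0.035. H2-T10 and Psme2 lie beyond the 8 genes per list that the naming rule allows, and they are named to complete the count. Close copies make these values uncertain, since 39.2% of the 50-base windows of H2-Q4, 42.9% of those of H2-T10, 29.8% of those of H2-T23 and 25.8% of those of Cd1d1 occurred in another gene. The loading complex genes Tapbp, Tapbpl, Calr, Canx and Pdia3 were among the 11 that did not pass. H2-Q1 and H2-T3 had no read in any library, and H2-Q2 and H2-Q7 did not pass the filter.

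In 14 of the 21 tested class I pathway genes wt replicate 2 was the highest of all 6 libraries. Without it 9 of the 10 called genes were still called, H2-T10 being the exception (edgeR adjusted p = 0.059). Without wt replicate 3, or without any 1 of the 3 hnRNP L deficient libraries, none of the 10 was called. All kept their direction there, and their edgeR adjusted p ran from 0.053 to 0.073 without wt replicate 3 and from 0.071 to 0.15 without an hnRNP L deficient library. Without wt replicate 1, 16 genes of this list were called.

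**Figure D5:**
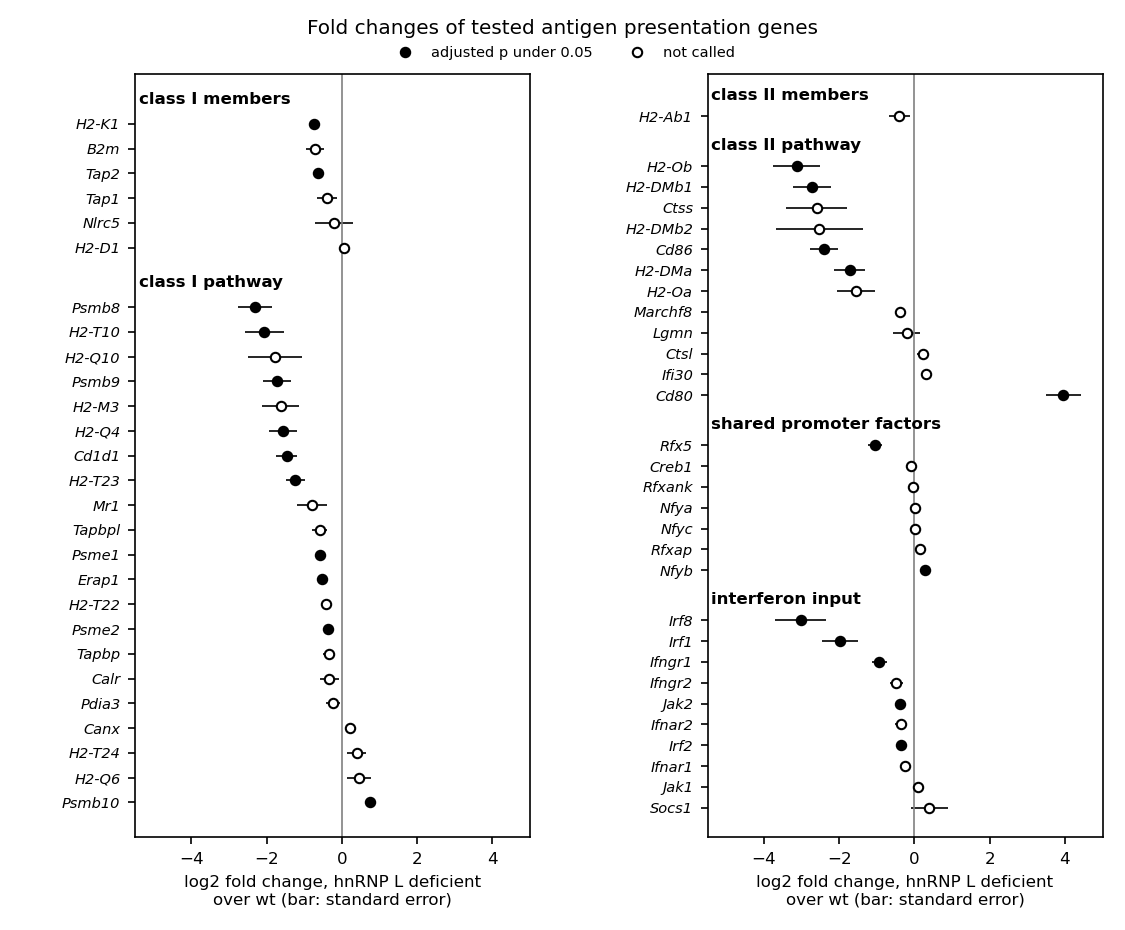
Log2 fold changes of hnRNP L deficient over wt cells for tested genes of each list, with bars giving the standard error from edgeR. Filled points passed an adjusted p of 0.05 (Benjamini-Hochberg); most filled points lie to the left of 0, with Psmb10, Cd80 and Nfyb to the right.

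The class II pathway list held 16 genes, of which 12 passed the filter, 4 fell, 1 rose and 7 did not pass the test, with a median log2 fold change of -1.64 (9.85% of all tested genes fell and 9.32% rose). Ciita, the coactivator on which class II transcription depends, did not pass the filter, with 8, 1 and 0 reads in wt and 0, 5 and 6 reads without hnRNP L. H2-DMa and H2-DMb1 encode chains of H2-DM, which exchanges the invariant chain fragment for peptide. H2-DMa stood at 2.74, 8.92 and 5.97 CPM in wt against 1.66, 1.87 and 1.84 CPM in hnRNP L deficient libraries (log2 fold change -1.72, SE 0.41, edgeR adjusted p = 0.032). H2-DMb1 gave 0.612, 1.72 and 0.771 CPM in wt and 0.14, 0.138 and 0.188 CPM without hnRNP L (log2 fold change -2.72, SE 0.51, edgeR adjusted p = 0.020). H2-Ob, a chain of the H2-O inhibitor of H2-DM, fell from 1.64 ± 0.88 to 0.187 ± 0.105 CPM (SD, n = 3 each; log2 fold change -3.13, edgeR adjusted p = 0.022). These 3 called genes of the loading machinery lay at levels below those of most class I genes. Each was lower in all hnRNP L deficient libraries than in any wt library, as were 22.7% of all tested genes.

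The costimulatory ligands of this list moved in opposite directions. Cd80 and Cd86 encode B7 molecules that T cells read through CD28 and CTLA-4. Cd80 measured 0.27, 0.6 and 0.22 CPM in wt and 3.79, 6.04 and 7.13 CPM in the deficient libraries, a log2 fold change of 3.96 (SE 0.46, edgeR adjusted p = 0.010). Cd86 stood at 1.19, 2 and 1.29 CPM in wt against 0.311, 0.199 and 0.335 CPM in hnRNP L deficient libraries, a log2 fold change of -2.40 (SE 0.37, edgeR adjusted p = 0.015). Neither pair of groups overlapped.

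The 5 called genes of this list were still called without wt replicate 2. The log2 fold changes of H2-DMa and H2-DMb1 were then -1.29 and -2.14 (edgeR adjusted p = 0.03 and 0.018). None of the 5 genes was called without wt replicate 3 (edgeR adjusted p from 0.053 to 0.088) or without any 1 hnRNP L deficient library (0.056 to 0.12), with the same directions. DESeq2 called 9 genes of this list, limma-voom with sample weights 8, and edgeR without wt replicate 1 called 8.

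Of the 7 listed factors of the shared promoter module, Rfx5 fell, Nfyb rose and 5 did not pass the test, against 9.85% and 9.32% of all tested genes that fell and rose. Rfx5, the DNA-binding subunit of RFX, gave 20.3, 31.3 and 31.3 CPM in wt and 14.1, 13.4 and 12.4 CPM without hnRNP L, with no overlap (log2 fold change -1.05, SE 0.18, edgeR adjusted p = 0.017). Nfyb, the NF-Y subunit beside Nfya and Nfyc, rose from 61.9 ± 4.3 to 75.1 ± 2.35 CPM (SD, n = 3 each; log2 fold change 0.28, edgeR adjusted p = 0.043), and it missed the threshold with scaling by total counts (adjusted p = 0.079). The RFX partners Rfxap and Rfxank (log2 fold changes 0.14 and -0.04) and Nfya, Nfyc and Creb1 (0.02, 0.02 and -0.08) had edgeR adjusted p of 0.34 or above. The median over the 7 was 0.02. Neither Rfx5 nor Nfyb was called without wt replicate 3 (edgeR adjusted p = 0.058 and 0.074) or without any 1 hnRNP L deficient library (0.075 to 0.18).

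Interferon signals raise class I expression through IRF factors, and of 11 listed genes of this input 5 fell, none rose and 6 did not pass the test (median log2 fold change -0.37), against 9.85% of all tested genes that fell. Irf1 measured 5.91, 23.2 and 10.1 CPM in wt and 3.09, 3.18 and 3.6 CPM in the deficient libraries (log2 fold change -1.99, SE 0.48, edgeR adjusted p = 0.034). Ifngr1, a chain of the interferon gamma receptor, stood at 134, 232 and 177 CPM in wt against 101, 92.6 and 91.8 CPM in hnRNP L deficient libraries (log2 fold change -0.93, SE 0.19, edgeR adjusted p = 0.023). Irf8, a factor of myeloid and B cell development, gave 11.4, 55.9 and 23.4 CPM in wt and 2.03, 4.35 and 4.8 CPM without hnRNP L (log2 fold change -3.02, SE 0.68, edgeR adjusted p = 0.034). In each of the 3 genes wt replicate 2 was highest and wt replicate 1 was the lowest wt library. All hnRNP L deficient libraries lay below all wt libraries, as in 22.7% of all tested genes.

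Jak2, a kinase of the interferon gamma receptor and of the erythropoietin receptor, and Irf2, an antagonist of IRF1, fell by 0.39 and 0.35 on the log2 scale (edgeR adjusted p = 0.021 and 0.038). The 5 calls held without wt replicate 2, where the log2 fold changes of Irf1, Irf8 and Ifngr1 were -1.28, -2.22 and -0.71. None held without wt replicate 3 (edgeR adjusted p from 0.057 to 0.096) or without any 1 hnRNP L deficient library (0.088 to 0.17), and without the expression filter Irf2 (0.064) and Irf8 (0.076) were lost.

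Marker genes of other cell types, some of which carry MHC molecules, were measured in the same libraries. For the staining of fetal liver the methods list lineage antibodies to B220, CD3, CD8, NK1.1 and CD49b, which mark B, T and NK cells. Antibodies to Ter119 and Gr1, which mark erythroid and granulocytic cells, are listed too, whereas CD11b, which macrophages carry, was left out. Of 11 macrophage markers 9 were tested and 4 fell (Csf1r, C1qa, C1qc and Mrc1), against 9.85% of all tested genes that fell. In 8 of them every hnRNP L deficient library lay below every wt library, as in 22.7% of all tested genes. The 11 markers summed to 25.7, 131 and 51.5 CPM in wt and 6.96, 13.8 and 13.6 CPM without hnRNP L. Vsig4 had no more than 1 read and Cd163 had 0 in every library. Csf1r, the receptor that defines the monocyte lineage, gave 11.3, 69.3 and 27.6 CPM in wt and 2.08, 4.61 and 4.8 CPM without hnRNP L. Psmb8, Irf8 and the class I genes H2-K1, B2m, Tap1, Tap2 and Nlrc5 had the same order of wt libraries. So did the macrophage markers Adgre1, Cd68, C1qa and Mpeg1 and the granulocyte precursor genes Mpo, Elane, Prtn3 and Ctsg. H2-D1 and the macrophage markers C1qb, C1qc, Mrc1 and Marco did not. The share of all tested genes with this order was not computed.

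Of all tested genes 9.85% fell. Of 8 dendritic cell markers 3 were tested, and Itgax fell. Their sum was 41.7 to 58.1 CPM in wt and 51.5 to 55 CPM in hnRNP L deficient cells, nearly all of it from Zbtb46, and Batf3, Siglech, Cd209a, Xcr1 and Ccr7 did not pass the filter. Of 8 B lineage markers 3 were tested and none passed with edgeR (2 at an unadjusted p under 0.05), while DESeq2 and limma-voom with sample weights each called 1. Their sum was 4.79 to 23.4 CPM in wt and 1.89 to 3.12 CPM in hnRNP L deficient cells, with Ms4a1 at 0 in every library. Of 6 T and NK markers only Cd4 was tested, which fell. Their sum was 0.342 to 1.07 CPM in wt and 0.121 to 0.214 CPM in hnRNP L deficient cells, with Cd8a and Ncr1 at 0. None of the 4 granulocyte precursor markers passed the edgeR test (0 at an unadjusted p under 0.05), and DESeq2 and limma-voom with sample weights called 0. The log2 fold changes of Mpo, Elane, Prtn3 and Ctsg were nevertheless -2.48, -2.85, -2.50 and -2.61, with wide errors (SE 1.05 to 1.71). The paper lists Mpo, Prtn3 and cathepsin G among genes that decreased in its RNA-seq comparison. Of the 6 erythroid markers reported here none passed with edgeR (1, Gata1, at an unadjusted p under 0.05), and DESeq2 and limma-voom with sample weights each called 1. Gata1 and Klf1 were higher in every hnRNP L deficient library than in any wt library, as were 22.7% of all tested genes. The sum of the 6 erythroid markers was 1095 to 1171 CPM in wt and 1099 to 1457 CPM in hnRNP L deficient cells.

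The stem and progenitor markers Kit, Cd34 and Flt3 fell, 3 of 5, against 9.85% of all tested genes that fell. The 5 markers summed to 539 to 811 CPM in wt and 368 to 402 CPM in hnRNP L deficient cells. Of 4 hepatocyte markers Ttr fell (sums 104 to 222 CPM in wt and 20.1 to 68.2 CPM in hnRNP L deficient cells), and of 3 endothelial markers Pecam1 fell (20.8 to 51 CPM and 9.94 to 12.3 CPM). The part of these markers' cells in the class I and class II results was not tested.

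hnRNP L regulates splicing, so the use of the exons of the 10 genes was compared as well. An exon bin is a stretch of exon used by the same transcripts, and its use is its share of the reads on its gene. The 10 genes held 199 bins, of which 92 had a mean of at least 10 reads and were tested with edgeR's diffSpliceDGE in 3 wt and 2 hnRNP L deficient libraries. None was called at an adjusted p of 0.05 and none had an unadjusted p under 0.05 (limma's diffSplice also gave 0 and 0), against 51 called bins, or 0.0288%, among 176996 tested in the entire table. The smallest unadjusted p was 0.13, for a bin of Tap1. Changes in use ran from -0.70 to 0.82 on the log2 scale in H2-K1, from -0.38 to 0.23 in H2-D1, from -0.09 to 0.05 in B2m and from -0.63 to 0.23 in Tap2. In Tap1 they ran from -0.76 to 1.15 with a median of 82.9 reads per bin, and in H2-Ab1 from -0.15 to 0.25. No bin of Nlrc5, H2-Aa, H2-Eb1 or Cd74 reached a mean of 10 reads, so their splicing could not be examined at this depth.

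Genes whose profile over the 6 libraries came closest to the class I and class II members were sought among 11619 genes, by the root mean square difference of log2(CPM + 0.1) centred on each gene. For the mean of H2-K1, H2-D1 and B2m these were Ppp1r21, Slc35b4, Glmp, Gabarap and Tmem256, with differences of 0.036 to 0.046. For the mean of the 4 class II genes they were Fam210b, Sox6, Nmral1, Ddx4 and 5031425E22Rik, with differences of 0.051 to 0.109. None of these 10 genes was called between the groups (edgeR adjusted p between 0.063 and 0.24). The class II profile rests in 3 of its 4 genes on at most 20 reads per library.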

How the data were processed

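The authors aligned paired-end reads from stranded mRNA libraries to GRCm38 with TopHat2 2.0.10 and counted them per gene with HTSeq and per exon bin with the DEXSeq script. The deposited values are raw counts. Their annotation release and strand option are not given in the sources used here. Here the deposited counts were normalized by TMM in edgeR 4.0.16 (R 4.3.3), filtered by its default expression filter and tested without pairing (glmQLFTest, robust fit, p-values adjusted by Benjamini-Hochberg). Exon bins were tested with diffSpliceDGE. Bin counts of the first hnRNP L deficient library were not used here. Alternatives used DESeq2 1.42.0 and limma 3.58.1. Positions are from GENCODE M21, whose release may differ from the authors'. Named from the lists were genes past an adjusted p of 0.05, up to 8 a list by smallest p. The genes and lists were chosen with earlier results of these data known. Some genes of the lists are not reported here. Between 39.8% and 44.7% of all reads did not align uniquely and were not counted. At 55952160 to 76157226 reads per library, the spread between embryos limited precision for most genes. Steps were tested on simulated data.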

Additional observations from a re-analysis of the deposited data

How the results depend on the processing

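With 3 libraries a group, the calls rested on most libraries being present. Over the omissions of single libraries, the class I genes called ran from 0 to 4, the other class I pathway genes from 0 to 16 and the other class II pathway genes from 0 to 8. The zeros came without wt replicate 3 and without each hnRNP L deficient library, where 5 to 17 genes of the entire table were called, against 2759 with all libraries. The highest counts came without wt replicate 1, where 4791 genes of the entire table (32.4%, against 19.2% with all libraries) were called. The cause of the wider calling was not tested. The class II to class I log2 ratio differed by -0.25 to 0.38 under the same omissions, and by -0.11 without Cd74 and B2m, less than the SD of the ratio in wt (0.63), and by -0.53 with medians of log2 CPM in place of sums. With limma-voom and sample weights, 16 other class I pathway genes, 8 other class II pathway genes and 1 class II gene (H2-Ab1) were called, with 5288 genes called in all (36.7%). DESeq2 called 9 other class II pathway genes, with 4130 in all (25.9%). The log2 fold change of H2-D1 was -0.02 with total counts and ran from -0.02 to 0.18 over the omissions of a library. That of Nlrc5 ran from -0.71 to 0.04. No exon bin of the 10 genes was called under limma's diffSplice, a minimum of 50 reads or the omission of any library. Of 372 alternative fits of single named genes, 262 kept direction and side of the threshold, 100 lost and 6 gained the call, and 4 turned sign. No paired analysis was possible because the labels number no replicates and their embryo numbers share a first part between the groups in 1 case alone, wt replicate 1 with hnRNP L deficient replicate 1. Deficient replicates 2 and 3 share another, and its meaning is not stated. The interval for counting error covered 1 for H2-Aa (0.101 to 1.72) and H2-Eb1 (0.49 to 2.24), and none was computed for Ciita. For Cd74 it lay below 1, whereas edgeR without the expression filter gave an adjusted p of 0.37. Whether depth or the spread between embryos limited these genes was not tested.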
